A study of Homo sapiens with 6 samples.

Results

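The contractile apparatus of myofibroblasts and smooth muscle was followed through 10 of its genes in ribosome footprints of WPMY-1 cells. The genes were taken from a fixed list of 10 Ensembl IDs, which carried the symbols ACTA2, ACTG2, TAGLN, CNN1, CALD1, TPM1, TPM2, MYL9, MYH9 and DES, and each ID matched 1 of the 62492 features of the deposited table. WPMY-1 is a cell line from the stroma of a human prostate, immortalised with the SV40 large T antigen and myofibroblast-like in character. The knockdown cells carried a short hairpin RNA against TRMT61A, with the genotype given as TRMT61A knockdown. The control cells carried a control hairpin, with the genotype given as TRMT61A wildtype. Each group had 3 footprint libraries, and the labels name no clone and no batch. TRMT61A is the catalytic subunit of the enzyme that methylates adenosine at the 1 position in tRNA, and the study asked how it regulates translation.

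A myofibroblast pulls on its surroundings with bundles of actin filaments and myosin motors. Actin forms the track, tropomyosin lies along it, and calponin and caldesmon bind the filament and restrain myosin, while the myosin heavy chain and its regulatory light chain make the force. Smooth muscle alpha-actin is the usual marker of the myofibroblast state, and many genes of this set are controlled by serum response factor through a DNA element called the CArG box. Footprints are the short stretches of mRNA that a ribosome shields from nuclease. A footprint count therefore moves with the amount of mRNA as well as with its translation, and also with the number of cells that carry it, and these could not be told apart from the footprints alone.

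None of the 10 genes was shown to differ between the groups. Footprints of 0 genes rose and of 0 fell at an adjusted p under 0.05 in edgeR's quasi-likelihood test, among the 7 that had enough counts to be tested. An unadjusted p under 0.05 was found for 2 of them, TPM1 and TPM2. DESeq2 and limma voom each placed 1, TPM1, past the adjusted threshold. DESeq2 placed 834 past it, out of 20515 features with a count, and limma voom 443 of 11653. Some of those 20515, CNN1 among them, got no adjusted p in DESeq2. Its share among the features it adjusted was therefore higher than 834 of 20515. Of the 11653 features tested in edgeR, 3.12% passed, 173 higher and 191 lower in the knockdown. The lowest adjusted p among the 10 belonged to TPM1, whose knockdown values all lay below the control values. CNN1 had no count in any knockdown library and a few counts in every control library, too few for the test. The muscle markers DES and ACTG2 also had too few, 0 to 1 count per knockdown library and 0 to 9 per control library.

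Total counts were 12704354 to 17752247 in the knockdown libraries and 6771455 to 8008896 in the control libraries. The 50 most abundant features of a library took 69.9% to 73.2% of the knockdown counts. They took 71.0% of the counts of control library 1, against 62.7% and 61.8% in control libraries 2 and 3, so control library 1 lay within the range of the knockdown on this measure. Values are given below as CPM (counts scaled to a common library size) after TMM scaling. TMM multiplies the library total by a factor set so that most features centre on no change, and this factor was 0.923 in control library 1 and 1.21 in the other 2 control libraries. The 10 genes together held 0.0734%, 0.0728% and 0.0884% of the counts of knockdown libraries 1 to 3, and 0.0905%, 0.141% and 0.142% of those of control libraries 1 to 3. The knockdown shares were thus all lower, the mean being 0.0782% ± 0.0088 in knockdown and 0.125% ± 0.030 in control (SD, n = 3 each). Of the counts outside the 50 features most abundant over all libraries, the 10 genes held 0.274% ± 0.016 in knockdown and 0.351% ± 0.036 in control (SD, n = 3 each). These summed shares were not tested. With library size alone as the scaling, the median log2 fold change of all tested features, knockdown over control, was also below 0, at -0.30.

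**Figure D1:**
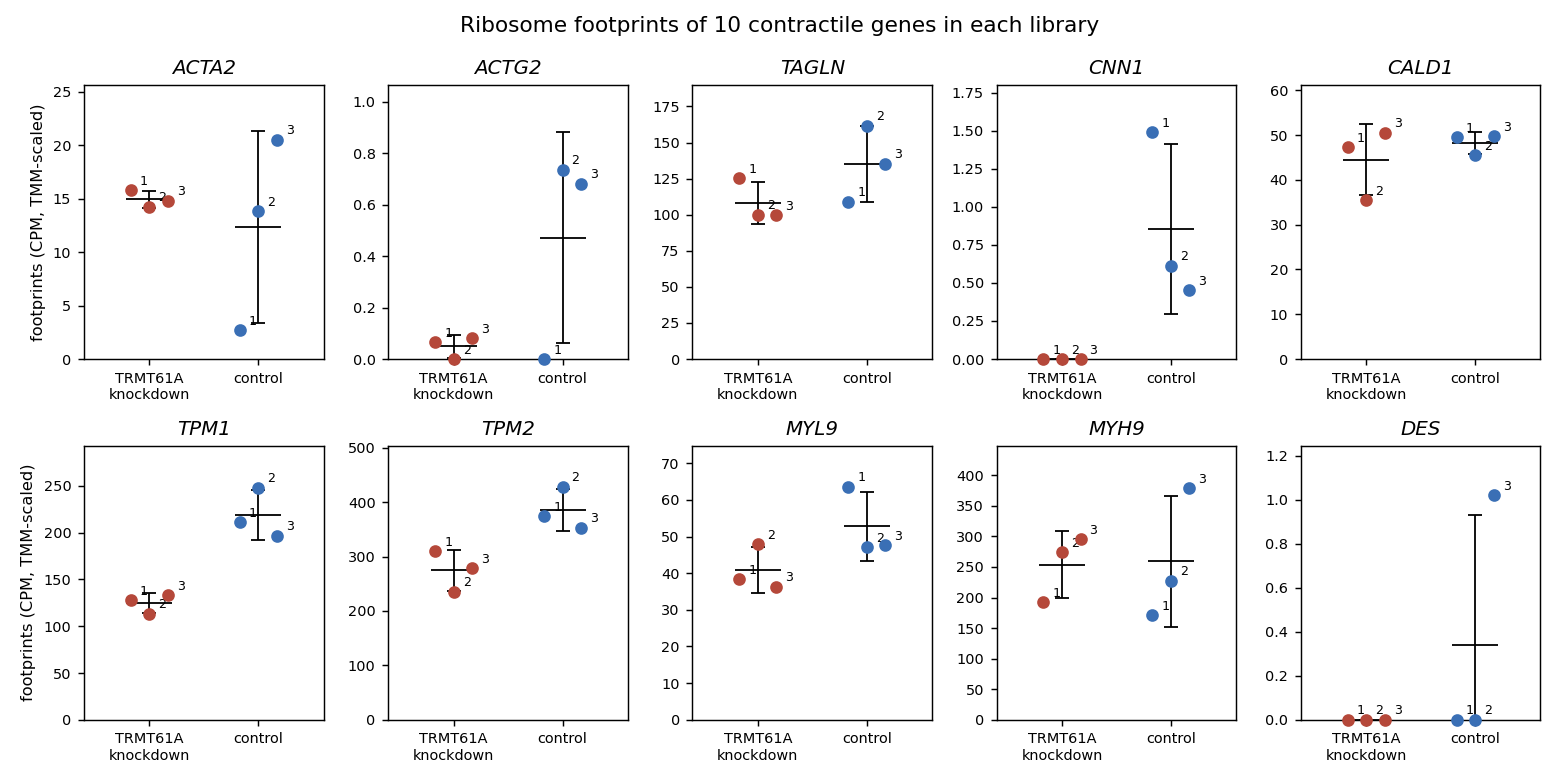
Each panel plots 1 gene, with footprints in TMM-scaled CPM on the vertical axis from 0 and the knockdown to the left of the control. Points are libraries, numbered as labelled, and bars are the mean and SD of 3 libraries, with the bar of DES running below 0 off the panel. TPM1, TPM2 and CNN1, the last not tested, are the genes whose groups do not overlap, where 24.8% of all tested features showed no overlap. ACTA2 in control library 1 stands at 2.71 CPM, below every other library.

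The actins came first in the set. ACTA2 (ENSG00000107796.13_8), smooth muscle alpha-actin, had 15.8, 14.2 and 14.8 CPM in knockdown libraries 1 to 3. It had 2.71, 13.9 and 20.5 CPM in control libraries 1 to 3, from 20, 113 and 181 counts. The knockdown values fell inside the control range and close together, with a coefficient of variation of 5.21% in knockdown and 72.8% in control. For the 500 tested features nearest to ACTA2 in mean CPM, the median coefficient was 32.1% in knockdown and 29.0% in control. The 20 counts of control library 1 allow 1.66 to 4.19 CPM (exact Poisson 95% interval, for counting error only) and the 113 counts of control library 2 allow 11.4 to 16.7 CPM. The log2 fold change, knockdown over control, was 0.27 ± 0.55 (SE), with a 95% interval from -0.93 to 1.47 (adjusted p = 0.885 in edgeR). Without control library 1 it was -0.21, and without control library 3 it was 0.84, so control library 1 decided the sign among the fits that dropped a library. The interval runs from a decrease of nearly 2-fold to an increase beyond 2-fold.

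ACTG2 (ENSG00000163017.14_5), the gamma-actin of visceral smooth muscle, is close in sequence to ACTA2. It had 1, 0 and 1 counts in knockdown libraries 1 to 3 and 0, 6 and 6 counts in control libraries 1 to 3. The groups met at 0 and ACTG2 was not tested, for want of counts (exact two-sided permutation p = 0.4 on CPM, where 3 against 3 libraries cannot go below 0.1). How reads that match both actins were assigned is not given in the sources used here. With the counts of ACTA2 and ACTG2 added up, the log2 fold change of the pair was 0.22, with an adjusted p of 0.914 in edgeR.

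ACTG2 also served to show the CArG box. In the exact form used here, the element begins with CC, goes on with 6 bases that are each A or T, and ends with GG. Boxes with any other base in that run were not counted. A match on either strand is also a match on the other, though the letters of a given box can differ between strands. It was searched for in RefSeq promoter windows of build GRCh38.p14, each from 250 bases before to 50 bases after a gene's start. Of the 10 genes, 7 had at least 1 window, 12 windows in all, and TAGLN, MYL9 and DES had none. The box was in 1 of the 12 windows, that of ACTG2, and in 1.29% of all 35116 windows of that length. No match says only that the letters were absent from that window. The stretch at chr2:73892878-73892964 (GRCh38.p14, plus strand, 5′ to 3′) holds both boxes of ACTG2, shown in capitals, whose first bases lie at -110 and -73 relative to the start.
ACTG2: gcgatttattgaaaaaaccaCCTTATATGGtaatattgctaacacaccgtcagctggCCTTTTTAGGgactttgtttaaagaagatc
The footprint counts give no measurement at this promoter. They place the gene at 0 to 1 count per knockdown library and 0 to 6 counts per control library.

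The actin-binding regulators differed among themselves in how much could be measured. TAGLN (ENSG00000149591.17_5), transgelin or SM22, an early marker of smooth muscle differentiation, had 125, 99.9 and 99.8 CPM in knockdown libraries 1 to 3 and 109, 162 and 135 CPM in control libraries 1 to 3. Control library 1 lay within the knockdown range, so the groups overlapped. TAGLN had a log2 fold change of -0.32 ± 0.23 (SE, 95% interval -0.83 to 0.18), with an adjusted p of 0.573 in edgeR. CALD1 (ENSG00000122786.20_8), caldesmon, which holds back the actin-activated ATPase of myosin, had 47.3, 35.5 and 50.6 CPM in knockdown and 49.5, 45.5 and 49.8 CPM in control. One knockdown library was lower than all controls and another higher than all of them. Its log2 fold change was -0.12 ± 0.24 (SE, 95% interval -0.64 to 0.40), with an adjusted p of 0.885 in edgeR.

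CNN1 (ENSG00000130176.8_5), calponin 1, which binds actin filaments and marks differentiated smooth muscle, had 0 counts in each of the 3 knockdown libraries. It had 11, 5 and 4 counts in control libraries 1 to 3, which are 1.49, 0.613 and 0.454 CPM. At the control mean of 0.853 ± 0.559 CPM (SD, n = 3) the knockdown libraries, which were deeper, would have held 13.0, 10.1 and 10.5 counts. Set against the floor of 3 counts in each knockdown library, a mean of 0.232 CPM, the control mean was 3.68-fold higher. That ratio came to 2.30-fold without control library 1, which held 11 of the 20 control counts. Neither ratio is a least fold, since both take the control mean as exact. The exact Poisson lower limits of control libraries 2 and 3, 0.199 and 0.124 CPM, lay below the floor mean. That of control library 1, 0.745 CPM, lay above it. CNN1 did not pass the count filter, and the exact two-sided permutation test over libraries gave p = 0.1, the smallest that 3 against 3 libraries can give. In edgeR without the filter its unadjusted p was 0.0445 and its adjusted p 0.391. DESeq2 gave an unadjusted p of 0.0219 and no adjusted one.

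Tropomyosin strengthens the actin filament and sets which proteins can bind it. TPM1 (ENSG00000140416.23_9), tropomyosin 1 or alpha-tropomyosin, had 128, 113 and 133 CPM in knockdown libraries 1 to 3 and 211, 248 and 197 CPM in control libraries 1 to 3. Every knockdown library was below every control library, with means of 125 ± 10 CPM in knockdown and 219 ± 26 CPM in control (SD, n = 3 each). The log2 fold change of TPM1 was -0.81 ± 0.21 (SE, 95% interval -1.27 to -0.35). Its adjusted p was 0.0634 in edgeR, short of the threshold of 0.05. Other methods placed TPM1 past it, with adjusted p = 0.00179 in DESeq2 and 0.0356 in limma voom, at log2 fold changes of -0.80 in both. In the 6 fits that each dropped a library, its adjusted p ran from 0.107 to 0.242 in edgeR.

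TPM2 (ENSG00000198467.16_8), tropomyosin 2 or beta-tropomyosin, had 310, 235 and 279 CPM in knockdown libraries 1 to 3 and 374, 428 and 353 CPM in control libraries 1 to 3. Here too the groups did not overlap, with means of 275 ± 38 CPM in knockdown and 385 ± 39 CPM in control (SD, n = 3 each). The log2 fold change of TPM2 was -0.49 ± 0.22 (SE, 95% interval -0.96 to -0.017), with an adjusted p of 0.287 in edgeR. TPM1 and TPM2 were the 2 of the 7 tested genes whose groups did not overlap, where 24.8% of all tested features showed no overlap. They were also the 2 with an unadjusted p under 0.05, where 16.3% of all tested features did.

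**Figure D2:**
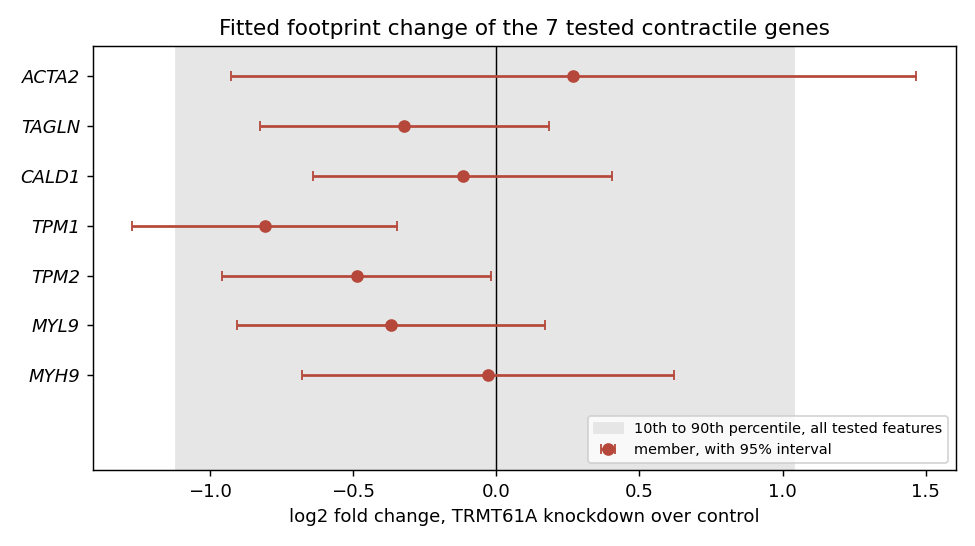
The horizontal axis is the log2 fold change, knockdown over control, for the 7 genes with enough counts. Points are the fitted values with 95% intervals, and the grey band runs from the 10th to the 90th percentile of all tested features (-1.12 to 1.04). All 7 points lie in the band, from -0.81 for TPM1 to 0.27 for ACTA2.

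Myosin supplies the force. MYL9 (ENSG00000101335.10_4), the regulatory light chain whose phosphorylation switches on smooth muscle myosin, had 38.4, 47.9 and 36.3 CPM in knockdown libraries 1 to 3 and 63.6, 47.1 and 47.6 CPM in control libraries 1 to 3. Knockdown library 2 lay among the controls, so the groups overlapped. MYL9 had a log2 fold change of -0.37 ± 0.25 (SE, 95% interval -0.91 to 0.17), with an adjusted p of 0.536 in edgeR. MYH9 (ENSG00000100345.22_5), the heavy chain of non-muscle myosin IIA, is made by most cell types and is not a smooth muscle marker. It had 192, 274 and 296 CPM in knockdown and 171, 228 and 379 CPM in control. Both groups were spread widely, the control with a coefficient of variation of 41.5% and the knockdown with 21.6%, against medians of 17.3% and 15.7% for the 500 tested features nearest in mean CPM. Its log2 fold change was -0.03 ± 0.30 (SE, 95% interval -0.68 to 0.62), with an adjusted p of 0.983 in edgeR. Its sign turned in 4 of its 15 alternative fits, with the highest value, 0.35, without control library 3.

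DES (ENSG00000175084.12_5), desmin, the intermediate filament protein of differentiated muscle, had 0 counts in all 3 knockdown libraries and in control libraries 1 and 2. Control library 3 held 9 counts, or 1.02 CPM. Such zeros leave room for 3 counts at most, or 0.197, 0.254 and 0.243 CPM in knockdown libraries 1 to 3 and 0.407 and 0.368 CPM in control libraries 1 and 2. No fold was computed for DES, since 2 control libraries were at 0 as well. Of the markers of smooth muscle differentiation, ACTA2 and TAGLN thus had footprints in all 6 libraries, while CNN1, ACTG2 and DES were each at 0 in at least 2. The set split by how much was measured. The tropomyosins, myosins, TAGLN, CALD1 and ACTA2 had between 20 and 4716 counts in every library, while CNN1, ACTG2 and DES had at most 11.

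Across the 7 tested genes, 6 fitted values were below 0 and 1 was above. Their median log2 fold change was -0.32, beside a median of -0.0047 over all tested features, and this holds for the tested genes and not for CNN1, ACTG2 and DES. The 95% intervals of 5 of the 7 genes, TAGLN, CALD1, TPM2, MYL9 and MYH9, lay wholly within a 2-fold change in either direction. That of TPM1 reached beyond a 2-fold decrease and that of ACTA2 beyond a 2-fold increase. With scaling to library size alone, the median over all features moved to -0.30 and all 7 values moved down with it, to -1.10 for TPM1 and -0.11 for ACTA2. TPM1 passed the test under that scaling, with an adjusted p of 0.0396 in edgeR.

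**Figure D3:**
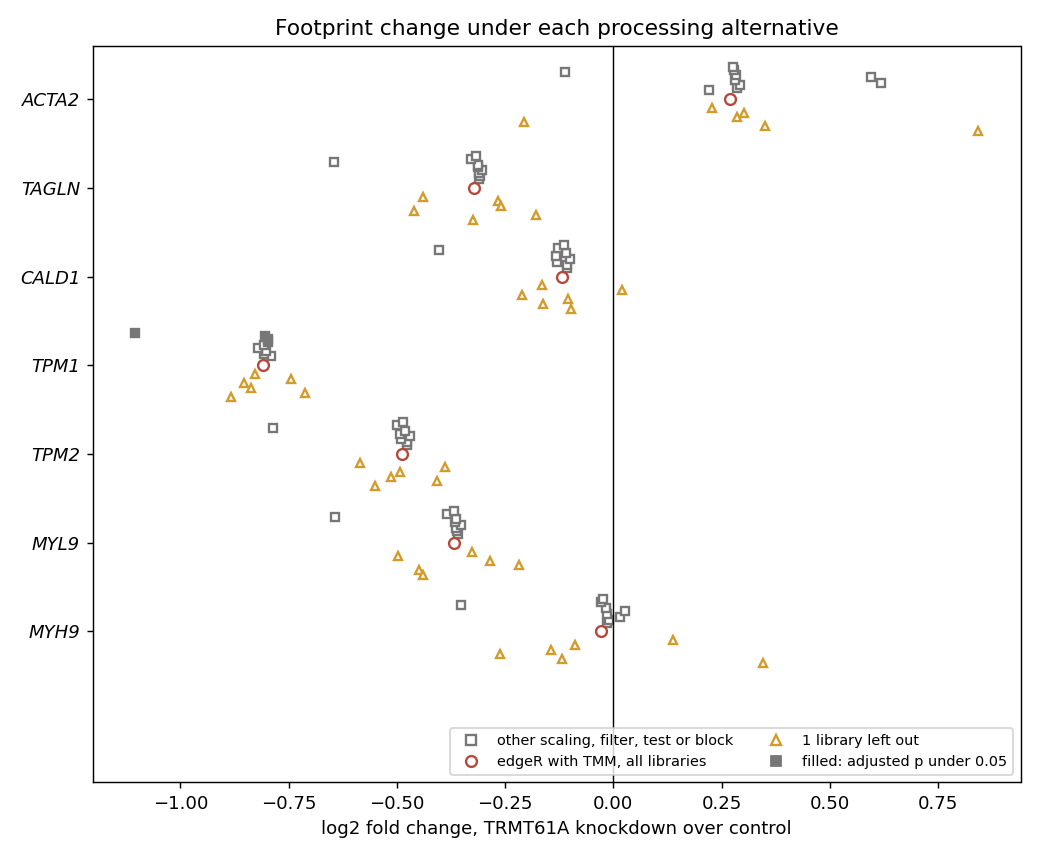
The horizontal axis is the log2 fold change, knockdown over control, of each tested gene under each processing alternative, and small vertical offsets only keep symbols apart. Circles are edgeR with TMM on all libraries, squares another scaling, filter, test or block, and triangles fits without 1 library. Filled symbols, 4 squares of TPM1, mark an adjusted p under 0.05, and the symbols of ACTA2 and MYH9 lie on both sides of 0.

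Ratios between 2 of the genes within a library do not depend on the scaling factor. In all, 3 pairs were compared, chosen after their values had been seen. The ratio of TPM1 to TPM2 counts was 0.412, 0.482 and 0.478 in knockdown libraries 1 to 3 and 0.565, 0.579 and 0.558 in control libraries 1 to 3. Its mean was 0.457 ± 0.039 in knockdown and 0.567 ± 0.011 in control (SD, n = 3 each), with no overlap. Since the pairs were chosen on these values, the ratios are a description and no test is given. How often ratios of other genes separate the groups was not computed. Of single tested features, 24.8% showed no overlap. The ratio of ACTA2 to TAGLN was 0.139 ± 0.012 in knockdown and 0.087 ± 0.063 in control (SD, n = 3 each), and the groups overlapped. The ratio of MYL9 to MYH9 was 0.166 ± 0.039 in knockdown and 0.235 ± 0.126 in control (SD, n = 3 each), again with overlap.

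**Figure D4:**
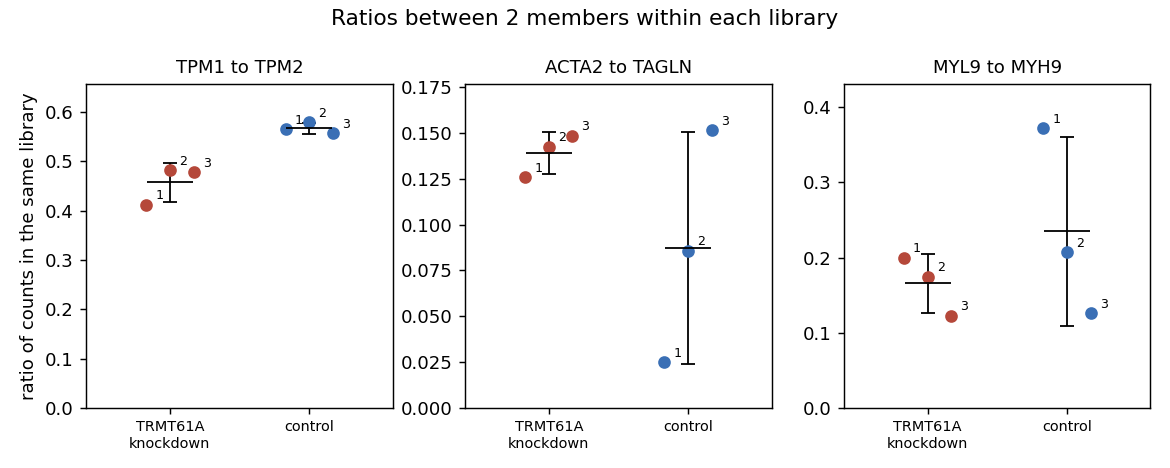
Each panel plots the ratio of the counts of 2 genes in the same library, on a vertical axis from 0, with the knockdown to the left of the control. Points are libraries, numbered as labelled, and bars are the mean and SD of 3 libraries. The ratio of TPM1 to TPM2 separates the groups, at 0.412 to 0.482 in knockdown and 0.558 to 0.579 in control, and the other 2 ratios overlap. The pairs were chosen after their values had been seen, and how often other pairs separate the groups was not computed.

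As shares of the counts of all 10 genes, TPM2 took 31.8% ± 3.9 in knockdown and 34.8% ± 4.4 in control, and MYH9 took 29.5% ± 6.1 in knockdown and 22.9% ± 7.9 in control (SD, n = 3 each). TPM1 took 14.5% ± 0.6 of these counts in knockdown and 19.8% ± 2.7 in control (SD, n = 3 each), with 13.8% to 14.9% in the knockdown libraries and 16.6% to 21.5% in the control libraries. These shares grow with the length of a gene's coding sequence as well as with its level, so the genes were not ranked against each other by level.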

How the data were processed

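Ribosome footprints were measured in 6 libraries, 3 of TRMT61A knockdown and 3 of control cells, grouped by the sample titles. The authors deposited raw read counts per Ensembl gene ID, as the values show, and fastp and Bowtie 1.3.1 with build hg38 are named per the submitters' processing notes. The sources used here do not state the counting tool, annotation, strand setting or handling of multiply matching reads. The control columns carry a vector's name, and assay and replicate number matched them to their samples. The table has 6 further columns, for RNA, that match no sample described here and were not used, so footprints were not divided by mRNA. The files pair no ID with a name, and no table used here did, so symbols are those given with the 10 IDs. The level of TRMT61A, other contractile genes, cell type markers and levels per coding length were not analysed here. The 10 genes and the lists were chosen with earlier results of these data known. All 10 were named, with no further rule.

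The test was run over the whole table in edgeR 4.0.16 (R 4.3.3), with filterByExpr, TMM, the two-sided quasi-likelihood F-test, Benjamini-Hochberg adjustment over 11653 features and a threshold of 0.05. It was checked on simulated data. Standard errors of log2 fold changes come from the F statistic (size over its square root). The alternatives were other scaling factors, 2 other filters, DESeq2 1.42.0, limma 3.58.1 with voom, a replicate block, each library left out in turn, the 2 actins summed and the within-library ratios, the last added after seeing the data. Library totals ran from 6771455 to 17752247 counts. Intervals and floors of 3 counts cover counting error only, since no molecular identifiers are described. The labels do not say whether libraries came from separate cultures, so p-values reflect a spread among libraries that may be technical.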

Additional observations from a re-analysis of the deposited data

How the results depend on the processing

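Of 106 alternative values for the 7 tested genes, 95 kept their sign and their side of the threshold. TPM1 passed in 4 of its 15 alternatives, with log2 fold changes (adjusted p) of -1.10 (0.0396) with library size alone, -0.80 (0.00179) in DESeq2, -0.80 (0.0356) in limma voom and -0.80 (0.0288) with at least 10 CPM in 3 libraries, and it was negative in all 15. TAGLN, TPM2 and MYL9 were also negative in all 15 and passed in none. With 1 library left out at a time, ACTA2 ran from -0.21 to 0.84, CALD1 from -0.21 to 0.020 and MYH9 from -0.26 to 0.35. The sign turned in 7 values, none of which passed: ACTA2 at -0.11 with library size alone and -0.21 without control library 1, CALD1 at 0.020 without knockdown library 2, and MYH9 at 0.015 in limma voom, 0.027 with the replicate block, 0.14 without knockdown library 1 and 0.35 without control library 3. Features past the threshold over the whole table numbered 364 of 11653. They numbered 834 in DESeq2, out of 20515 features with a count, not all of which got an adjusted p. Without a filter they numbered 735 of 20515. With at least 10 CPM in 3 libraries they numbered 602 of 6111, and in limma voom 443 of 11653. The replicate block gave 208 of 11653. Fits with 1 library left out ran from 47 of 12672 to 171 of 11886. Library size alone gave 63 higher and 334 lower of 11653. The cause was not tested. Deviations of same-numbered libraries from their group means correlated at -0.0017, -0.021 and 0.060, so the numbers were not taken to pair the libraries. The block gave none of the 7 tested genes a different call. The mean CPM differences, knockdown minus control, of the 3 untested genes were -0.423 for ACTG2, -0.853 for CNN1 and -0.340 for DES. Without the 50 most abundant features, which shrinks every library total, they were -1.34, -2.73 and -1.08. Without control library 3 the difference of DES was 0. The summed share of the 10 genes differed, knockdown minus control, by -0.0465 percentage points of all counts and by -0.0764 of the counts outside those 50. Depth limits CNN1, ACTG2 and DES, at 0 to 11 counts per library.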
